A study of Mus musculus with 6 samples.

Results

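Immune checkpoint genes encode the ligands and receptors that hold back or help a T cell, a natural killer (NK) cell or a phagocyte once it meets another cell. The 10 genes followed here were chosen by name, and all 10 were among the 23946 gene symbols of the deposited table: Cd274, Pdcd1lg2, Cd80, Cd86, Pdcd1, Ctla4, Lag3, Tigit, Havcr2 and Sirpa. Each reached 1 fragment per kilobase per 1000000 aligned reads (FPKM) in at least 1 library, as did 13064 genes in all, and 8 of the 10 did so in every library. Lag3 and Tigit were the exceptions.

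Macrophages can carry the ligand in some of these pairs and the receptor in others. PD-L1 (Cd274) and PD-L2 (Pdcd1lg2) on a macrophage bind PD-1 (Pdcd1) on T cells and dampen them. CD80 and CD86 bind CD28 and costimulate T cells, or bind CTLA-4, which takes them away from CD28. SIRPA on phagocytes receives an inhibitory signal from CD47 on the cell that is to be eaten, and in peritoneal tumors such as ovarian cancer both arms are studied as brakes on immunity.

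RNA was sequenced from cells sorted as CD45+CD11b+F4/80+ from the omentum (OM) or the mesenteric adipose tissue (MY) of female C57BL/6 mice. In each tissue 1 library came from naive mice, 1 from mice 24 h and 1 from mice 7 d after injection of ID8, a mouse ovarian cancer cell line of the same strain background. The design text gives 9 mice in all, in groups of 3, so the animals behind a library cannot be separated. No transgene or drug was involved in the 6 groups. With 1 library per condition no spread between animals is known, and each difference describes 2 libraries. A test between the tissues would have to take the 3 times as replicates and was not run, so no p-value is given. Trios of FPKM below follow the order naive, 24 h, 7 d.

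The 3 genes of the sort markers were present throughout: their summed FPKM ran from 209.5 to 391.7 in the omental libraries and from 241.6 to 278.5 in the mesenteric ones. None of the 9 macrophage markers was at 0 in any library. Markers of other cell types were present as well. The 7 T cell markers summed to between 29.3 and 147.6 in the omentum and between 590.6 and 1195 in the mesentery, the 6 NK cell markers to between 13.8 and 233.5 and between 643.6 and 1539, and the 5 B cell markers to between 904.4 and 3967 and between 524.3 and 1539. A list of 5 genes of mature dendritic cells summed to between 190.0 and 299.3 in the omentum and between 1471 and 1966 in the mesentery. In OM 24h the summed macrophage markers were highest (13530, against 1324 to 3348 in the other libraries) and the T and NK cell markers lowest. Cd74, the invariant chain gene, was listed at 0 there against at least 11323 elsewhere, a 0 that may be a failed estimate and is not read as a level. In bulk RNA fewer cells of a type and less RNA per cell cannot be told apart, and the part of other cells in the values below was not tested.

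Several of these genes lie beside each other. In the NCBIM37 (mm9) assembly, which the authors also aligned to, Cd274 (plus strand, chromosome 19, 29441945 to 29462585) is followed after 22.8 kb by Pdcd1lg2 (29485409 to 29545647), with 0 protein-coding genes between them. On chromosome 1, Ctla4 (60943844 to 60972676) lies between Cd28 and Icos, at 114 kb from the first and 62.1 kb from the second, and Pdcd1 is at 95934884 to 95949130. Chromosome 16 holds Cd86 (36603955 to 36666167), Cd80 (38459013 to 38495821) and Tigit (43648974 to 43664297). Lag3 is on chromosome 6 (124854379 to 124861723), Havcr2 on chromosome 11 (46268437 to 46294757) and Sirpa on chromosome 2 (129418571 to 129457964). Of the 75-base windows of their coding transcripts, 0 occurred in a coding transcript of another gene, apart from 13 of the 3548 windows of Cd274 (0.366%), so near-identical gene copies were few.

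Promoter sequence is shown for the neighbours Cd274 and Pdcd1lg2, both lowest in OM 24h, and for Ctla4, whose FPKM varied most among the 10 genes. The windows come from RefSeq (GRCm38.p6), which had 7 of the 10 genes (not Cd86, Lag3 and Sirpa), and run from 250 bases before to 50 bases after a start. Each has 1 exact match in NCBIM37: chr19:29441678-29441977 for Cd274, chr19:29485159-29485458 for Pdcd1lg2 and chr1:60965619-60965918 for Ctla4, all on the plus strand. The windows of Cd274 and Pdcd1lg2 cross the start of the gene spans given above. That of Ctla4 lies inside its span, so the start used there differs. Capitals mark the match to the NF-kappaB consensus in Pdcd1lg2 and to the NFAT core TGGAAA in Ctla4. Both matches are on the other strand, so the NFAT core is printed as TTTCCA. Cd274 has no capitals because it held neither the NF-kappaB consensus nor any other motif searched.
Cd274: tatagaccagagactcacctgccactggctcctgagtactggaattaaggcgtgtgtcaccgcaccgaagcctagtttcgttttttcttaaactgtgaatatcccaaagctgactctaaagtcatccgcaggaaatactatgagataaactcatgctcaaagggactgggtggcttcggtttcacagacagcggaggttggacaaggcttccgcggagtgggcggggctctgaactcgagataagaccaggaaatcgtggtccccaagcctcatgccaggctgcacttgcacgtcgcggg
Pdcd1lg2: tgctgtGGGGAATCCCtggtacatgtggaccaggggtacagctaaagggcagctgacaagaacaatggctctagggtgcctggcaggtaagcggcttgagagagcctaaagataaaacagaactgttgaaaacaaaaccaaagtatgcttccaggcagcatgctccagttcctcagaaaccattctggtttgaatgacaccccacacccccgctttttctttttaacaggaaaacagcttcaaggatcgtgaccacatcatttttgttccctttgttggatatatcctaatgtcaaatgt
Ctla4: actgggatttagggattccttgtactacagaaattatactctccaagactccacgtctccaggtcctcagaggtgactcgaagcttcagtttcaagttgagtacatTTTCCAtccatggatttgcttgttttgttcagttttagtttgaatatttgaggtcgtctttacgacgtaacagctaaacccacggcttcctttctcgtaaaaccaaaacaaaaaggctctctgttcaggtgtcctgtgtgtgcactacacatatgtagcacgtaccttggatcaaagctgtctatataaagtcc
On both strands, the NF-kappaB consensus was found in 5.80% of 32851 RefSeq promoter windows and TGGAAA in 21.4%. The interferon-gamma-activated motif TTCNNNGAA (8.30% of windows), the interferon-stimulated response element core (3.44%) and the PU.1 core GAGGAA (28.3%) were also searched. Of the 7 windows, 0 held either interferon motif, and the PU.1 core was in those of Pdcd1, Havcr2 and Pdcd1lg2. No pair of these motifs overlapped in the windows shown. Such a match is a string of letters, not a bound site.

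Among the ligands of PD-1, Cd274 was similar in 5 of the 6 libraries and low in OM 24h. In the omentum its FPKM was 27.0, 14.5 and 27.6, and in the mesentery 22.5, 28.6 and 23.5. The omental and mesenteric values overlapped, and OM 24h lay below OM naive with a difference of -0.85 on the log2(FPKM + 1) scale, on which 1 is 2-fold and changes of low genes are understated. Pdcd1lg2, whose product also binds PD-1, stood at 9.49, 2.74 and 5.55 in the omentum and at 6.74, 6.29 and 5.32 in the mesentery. It was lowest in OM 24h too, with a log2 difference of -1.49 from OM naive, or -0.90 with a pseudocount of 5. Over the 6 libraries, which share tissue and depth between both genes, log2 values of the neighbours had a Pearson r of 0.82. OM 24h was the lowest library of both, and outside it their orders differed. Cd274 was highest in MY 24h and Pdcd1lg2 in OM naive. The r without OM 24h was not computed, so this value does not show that the genes vary together elsewhere. Within a library the ratio of Cd274 to Pdcd1lg2, which does not depend on scaling between libraries, was 2.84 in OM naive and 3.34 in MY naive, and lay between 4.42 and 5.29 in the 4 libraries after injection. Both tissues thus showed the higher ratio at both times, with Cd274 in the lead in every library.

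**Figure D1:**
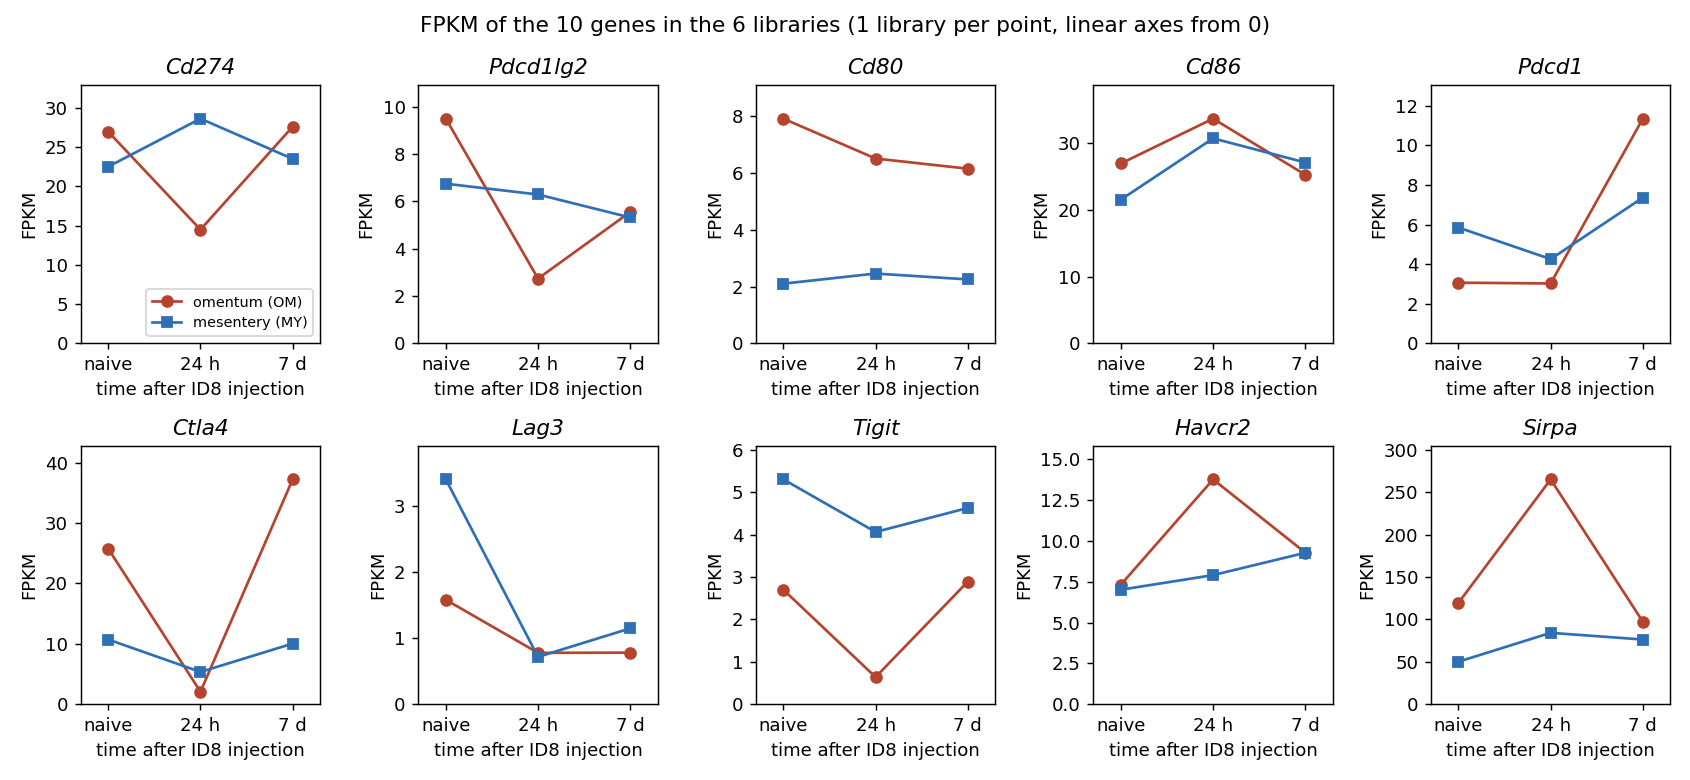
FPKM of the 10 genes (linear axes from 0, each panel with its own maximum) in naive mice and 24 h and 7 d after ID8 injection, for the omentum (circles) and the mesentery (squares), with 1 library per point and no error bars because there are no replicates. Cd80 was higher in every omental library (6.16 to 7.92) than in any mesenteric one (2.11 to 2.46), while Ctla4, Tigit, Cd274 and Pdcd1lg2 were lowest in OM 24h.

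The B7 ligands differed from each other in how they followed the tissue. Cd80 had an FPKM of 7.92, 6.51 and 6.16 in the omentum, and of 2.11, 2.46 and 2.26 in the mesentery. Every omental library was at least 2-fold above every mesenteric one. That held for 1 of the 10 genes, Cd80, and for 2.73% of all expressed genes, and for 0 of the 10 in the other direction, with 2.12% of all. On the log2 scale Cd80 was higher in the omentum by 1.52 in naive mice, by 1.12 at 24 h and by 1.14 at 7 d, and after injection it stayed within 0.32 of its naive value in both tissues. With a pseudocount of 5 in place of 1 the differences became 0.86, 0.63 and 0.62, and after rescaling to equal sums the value at 24 h became 0.93, so both settings left 0 of the 10 genes separated by 2-fold. The gap between the tissues itself, of any size, was present for Cd80 as for 16.7% of all genes in this direction.

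Cd86, the other B7 ligand, was close in the tissues: 27.0, 33.7 and 25.3 in the omentum, and 21.6, 30.7 and 27.1 in the mesentery. It had the lowest ratio of highest to lowest FPKM of the 10 genes, 1.56. In both tissues the library at 24 h was highest, with log2 differences from the naive one of 0.31 (omentum) and 0.49 (mesentery), both under 2-fold. The ratio of Cd86 to Cd80 within a library was 3.41, 5.17 and 4.10 in the omentum and 10.2, 12.5 and 12.01 in the mesentery. The tissues did not overlap in this ratio, and the difference lay in Cd80. Beside it, the mature dendritic cell list, of a cell type rich in B7 ligands, was higher in every mesenteric than in any omental library, opposite to Cd80, and the neutrophil list was opposite to that, at 5823 to 14512 in the omentum and 223.7 to 651.2 in the mesentery. Their part in the Cd80 values was not tested.

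**Figure D2:**
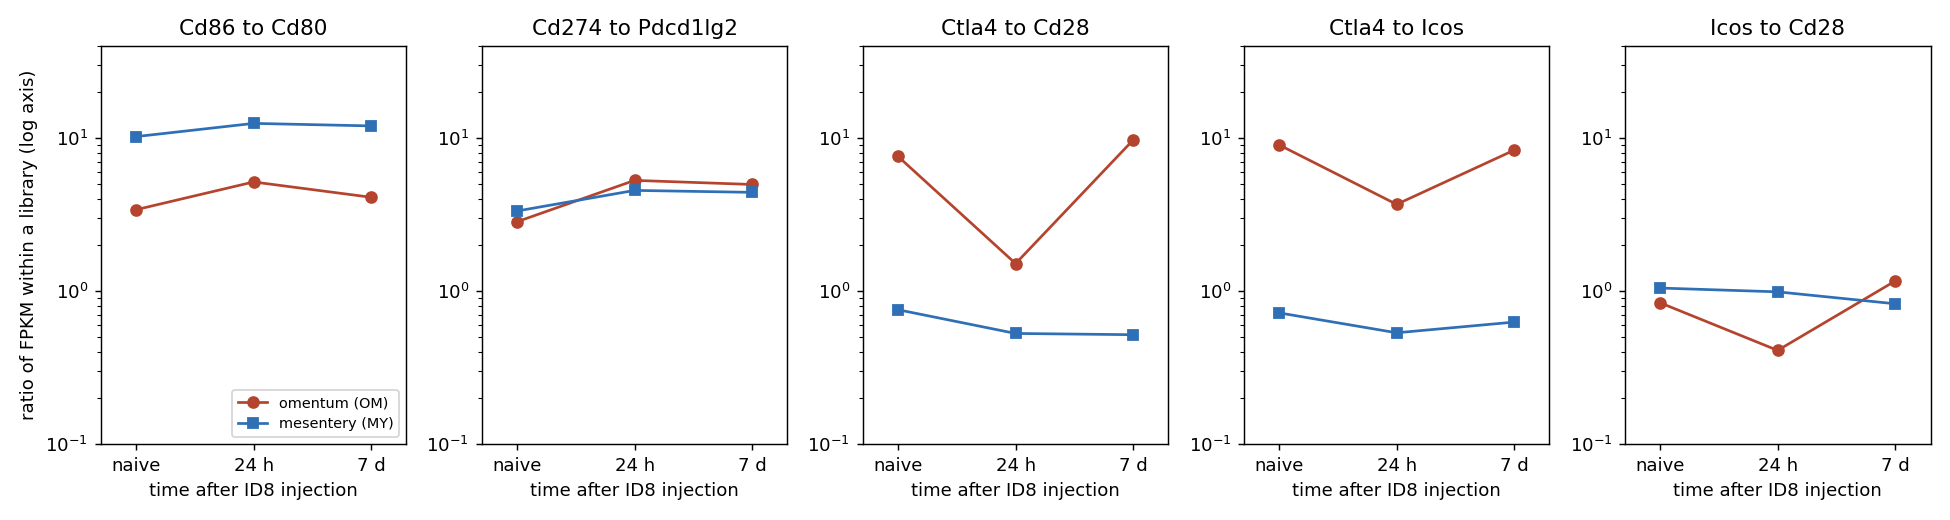
Ratio of 2 FPKM values within a library (log axis) against time after ID8 injection, for the omentum (circles) and the mesentery (squares), with 1 library per point. The ratio of Cd86 to Cd80 was 3.41 to 5.17 in the omentum and 10.2 to 12.5 in the mesentery, and that of Ctla4 to Cd28 was 1.51 to 9.72 in the omentum and 0.519 to 0.756 in the mesentery.

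Ctla4, which encodes the inhibitory receptor for both B7 ligands, varied most. Omental libraries held an FPKM of 25.7, 2.07 and 37.2, and mesenteric ones 10.7, 5.35 and 10.04. The highest omental library was 18.0 times the lowest, and the range was narrower in the mesentery. OM naive was above MY naive by 1.19 on the log2 scale and OM 7d above MY 7d by 1.79, but OM 24h was below MY 24h, at -1.05, so the order of the tissues was reversed at 24 h. With a pseudocount of 5 the naive difference was 0.97 and that at 24 h -0.55, both under 2-fold. OM 24h against OM naive came to -3.12, the largest difference of any of the 10 genes in the 7 comparisons. Without OM 24h, a choice made after the values were seen, Ctla4 joined Cd80 among the genes with every omental library at least 2-fold above every mesenteric one, which 3.59% of all genes then were.

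The neighbours of Ctla4, both costimulatory receptors of T cells, were distributed the other way round. Cd28 had an FPKM of 3.39, 1.37 and 3.83 in the omentum and of 14.2, 10.1 and 19.3 in the mesentery, and Icos of 2.85, 0.562 and 4.46 and of 14.8, 9.997 and 16.0. The ratio of Ctla4 to Cd28 was 7.59, 1.51 and 9.72 in the omentum and 0.756, 0.529 and 0.519 in the mesentery. The ratio of Ctla4 to Icos was between 3.69 and 9.03 in the omentum and between 0.535 and 0.722 in the mesentery. For Icos to Cd28 the tissues overlapped, at 0.410 to 1.17 and 0.827 to 1.05, so Ctla4 alone of the trio had its higher values in naive and 7 d omentum. These ratios were chosen after the values were seen.

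Markers of lymphocytes moved with Ctla4 in part. Per unit of Cd3e, a subunit of the T cell receptor complex, Ctla4 stood at 0.919, 0.521 and 1.31 in the omentum and at 0.0451, 0.0516 and 0.0393 in the mesentery, so no omental value overlapped a mesenteric one. Foxp3, which marks regulatory T cells, a population known for constant CTLA-4, was at 1.62, 0.190 and 4.501 in the omentum and at 6.20, 2.19 and 4.39 in the mesentery, and Ctla4 to Foxp3 was 8.27 to 15.9 in the omentum and 1.73 to 2.44 in the mesentery. The B cell list was closer in shape, at 3967, 904.4 and 2447 in the omentum and at 795.7, 524.3 and 1539 in the mesentery, with an r of 0.81 between Ctla4 and its mean log2 value over the 6 libraries. Ctla4 per unit of Cd79a, a B cell receptor subunit, was between 0.00529 and 0.0379 in the omentum and between 0.0158 and 0.0318 in the mesentery, with overlap. Which cells gave the Ctla4 reads was not tested.

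**Figure D3:**
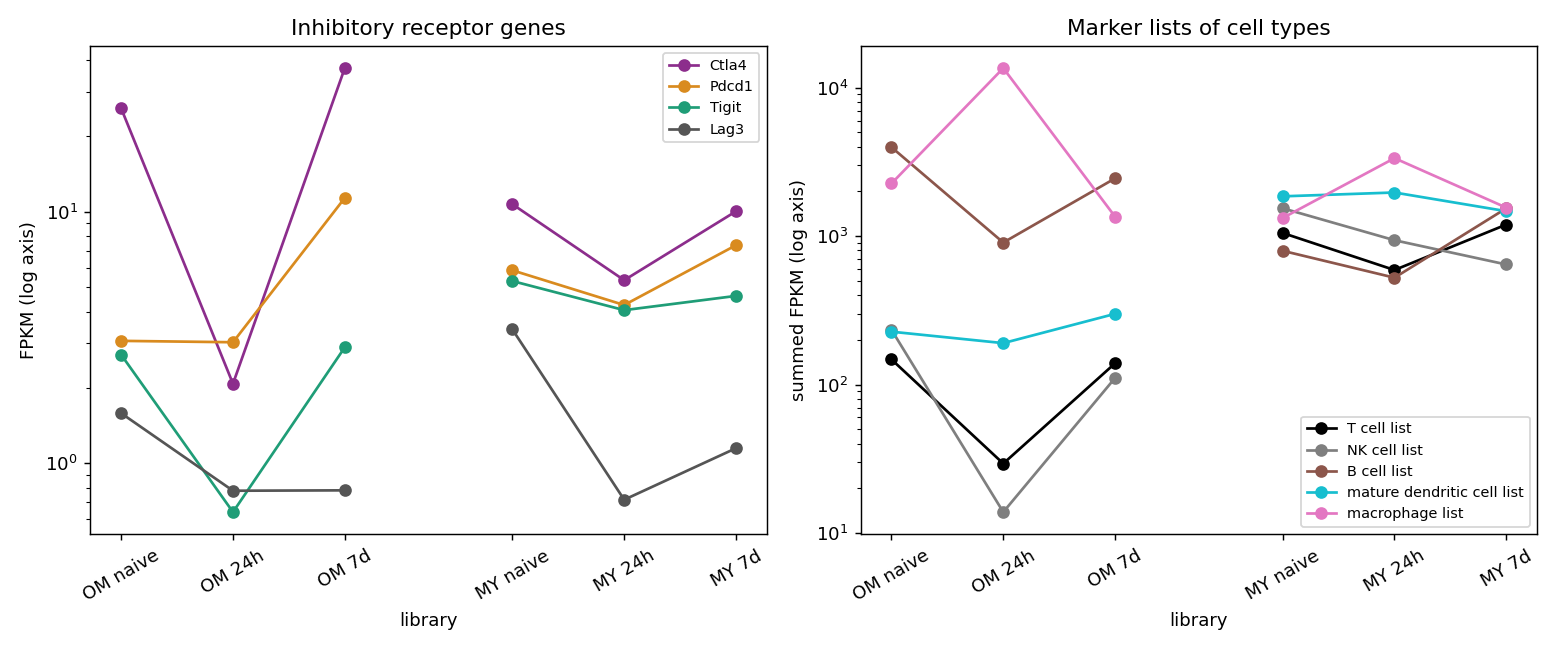
Left, FPKM of 4 inhibitory receptor genes, and right, summed FPKM of 5 lists of cell type markers, in the 6 libraries (both log axes, 1 library per point). Ctla4 was 2.07 in OM 24h against 25.7 and 37.2 in the other omental libraries, and the T, NK and B cell lists were also lowest of the omental libraries there.

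Pdcd1, the gene of PD-1, was highest in OM 7d. It stood at 3.07, 3.03 and 11.3 in the omentum and at 5.85, 4.26 and 7.36 in the mesentery. OM 7d was above OM naive by 1.60 on the log2 scale and was the only one of the 10 genes past 2-fold in that comparison, while the mesenteric difference at 7 d was 0.29. The T cell list was 147.6 in OM naive and 139.0 in OM 7d, and the regulatory T cell list 5.66 and 10.5. Per unit of Cd3e, a ratio chosen after the values were seen, Pdcd1 was 0.1096 in OM naive and 0.400 in OM 7d. This ratio was highest in OM 24h, at 0.761, where Cd3e itself was lowest (3.98, against 28.0 in OM naive). It was 0.0246 to 0.0411 in the mesentery. Which cells gave the Pdcd1 reads was not tested. OM naive and OM 24h could not be told apart by counting error. Those values rest on roughly 179 and 209 fragments, which give exact Poisson 95% intervals of 2.64 to 3.55 and 2.63 to 3.47.

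Tigit and Lag3, inhibitory receptors of T and NK cells, were the 2 genes of the set with an FPKM under 1 in some library. Tigit had an FPKM of 2.70, 0.640 and 2.89 in the omentum and of 5.30, 4.06 and 4.63 in the mesentery. Every omental value was below every mesenteric one, as for 17.7% of all genes in that direction, though not by 2-fold at every pair. OM 24h was below OM naive, at -1.17, and below MY 24h, at -1.63. The sizes depend on the pseudocount: with 5 they were -0.45 and -0.68, under 2-fold, and with 0.1 they were -1.92 and -2.49. It rests on roughly 22 fragments, with a Poisson interval of 0.401 to 0.970, which does not reach any other library's value. Over the 6 libraries Tigit had an r of 0.97 with the mean of the NK cell list and of 0.94 with that of the T cell list. Per unit of Cd3e it was nonetheless 0.0964 to 0.161 in the omentum and 0.0181 to 0.0392 in the mesentery.

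Lag3 stood at 1.58, 0.779 and 0.781 in the omentum and at 3.41, 0.717 and 1.149 in the mesentery. MY naive was highest, and the log2 differences of MY 24h and MY 7d from it were -1.36 and -1.04. With a pseudocount of 5 these became -0.56 and -0.45, under 2-fold, and with 0.1 they became -2.10 and -1.49. OM 24h, OM 7d and MY 24h could not be ordered, since their Poisson intervals of 0.593 to 1.004, 0.626 to 0.964 and 0.555 to 0.912 overlap, and the interval of MY 7d, 0.944 to 1.38, touches the first 2. The NK cell list was also highest in MY naive, at 1539, then 937.5 and 643.6, and the T cell list was not, at 1049, 590.6 and 1195. These are the intervals of counting alone, from a rough depth, and say nothing of the spread between animals.

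Havcr2, the gene of TIM-3, which T cells and myeloid cells both carry, varied little outside OM 24h. Its FPKM was 7.33, 13.8 and 9.29 in the omentum and 7.02, 7.91 and 9.28 in the mesentery. OM 24h was above OM naive by 0.83 and above MY 24h by 0.73, neither of them 2-fold. At 7 d the tissues were equal to within counting error, with intervals of 8.79 to 9.80 and 8.75 to 9.83. Csf1r, the macrophage growth factor receptor gene, differed more in the same direction, at 131.9, 569.8 and 102.8 in the omentum, so that Havcr2 per unit of Csf1r was lowest in OM 24h among the omental libraries, at 0.0242 against 0.0556 and 0.0903.

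Sirpa, the phagocyte receptor for CD47, had the highest FPKM of the 10 genes in every library. It stood at 119.5, 265.0 and 97.3 in the omentum and at 50.1, 84.2 and 76.3 in the mesentery. All omental values were above all mesenteric ones, as for 16.7% of all genes in that direction. OM 7d and MY 24h were the closest pair. Sirpa was higher in the omentum by 1.24 in naive mice, by 1.64 at 24 h and by 0.35 at 7 d, and OM 24h was above OM naive by 1.14, or by 0.94 after rescaling to equal sums. Relative to Csf1r it was lower at 24 h, at 0.465 against 0.906 in OM naive and 0.946 in OM 7d, and in the mesentery at 0.269 against 0.415 and 0.397. The macrophage list was highest in OM 24h in the omentum and in MY 24h in the mesentery, as Sirpa was in each tissue. Cd47, its ligand gene, stayed between 253.2 and 336.1 in all 6 libraries, so the ratio of Sirpa to Cd47 ran from 0.198 in MY naive to 0.909 in OM 24h.

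Counted by comparison, the 10 genes were not all of one direction. Between the naive tissues, Cd80, Ctla4 and Sirpa were at least 2-fold higher in the omentum (3 of 10, where 8.18% of all expressed genes were) and 0 were lower (8.05% of all; 16.2% either way), with a median log2 difference of 0.28 against 0.01 over all genes. After rescaling to equal sums, which put the median of all genes at -0.19, the split was 2 higher and 3 lower, and relative to that median it was again 3 and 0. In OM 24h against OM naive, Sirpa was higher (1 of 10, with 11.9% of all genes) and Pdcd1lg2, Ctla4 and Tigit were lower (3 of 10, with 6.45% of all and 18.3% either way), and the median was -0.39 against 0.00. Rescaling made this 0 higher and 4 lower at a median of all genes of -0.17, or 1 and 3 relative to that median.

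At 7 d the omentum differed less from its naive state. Pdcd1 was higher in OM 7d than in OM naive (1 of 10, with 11.0% of all genes) and 0 were lower (1.96% of all, 12.9% either way). In the mesentery 0 of the 10 were higher at 24 h (2.80% of all) or at 7 d (0.498% of all), and Lag3 was lower at both times (1 of 10 each, with 1.52% and 2.29% of all). In either direction 4.32% and 2.79% of all genes differed there. The medians of the 10 genes in these 3 comparisons were -0.03, 0.03 and 0.06.

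By the number of the 10 genes past 2-fold, the tissues were furthest apart at 24 h. Over all genes the share past 2-fold was also largest at 24 h (24.1%, against 16.2% in naive mice and 19.1% at 7 d). With a pseudocount of 5 the naive tissues, 24 h and 7 d all tied. After rescaling to equal sums, or requiring an FPKM of 1 in every library, 24 h tied with the naive tissues. Relative to MY 24h, OM 24h had at least 2-fold more Cd80 and Sirpa (2 of 10, with 13.9% of all genes) and less Ctla4 and Tigit (2 of 10, with 10.2% of all and 24.1% either way). After rescaling this split became 1 higher and 4 lower at a median of all genes of -0.27, or 2 and 3 relative to it, Cd274 and Pdcd1lg2 lying near the threshold at -0.93 and -0.96 before it. Between OM 7d and MY 7d, Cd80 and Ctla4 were higher (2 of 10, with 14.1% of all genes) and 0 were lower (4.99% of all, 19.1% either way). Over the 6 libraries the median range of the 10 genes was 1.505 on the log2 scale, against 0.95 over all expressed genes. The comparisons with a shared library, such as both times against OM naive, are not independent.

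**Figure D4:**
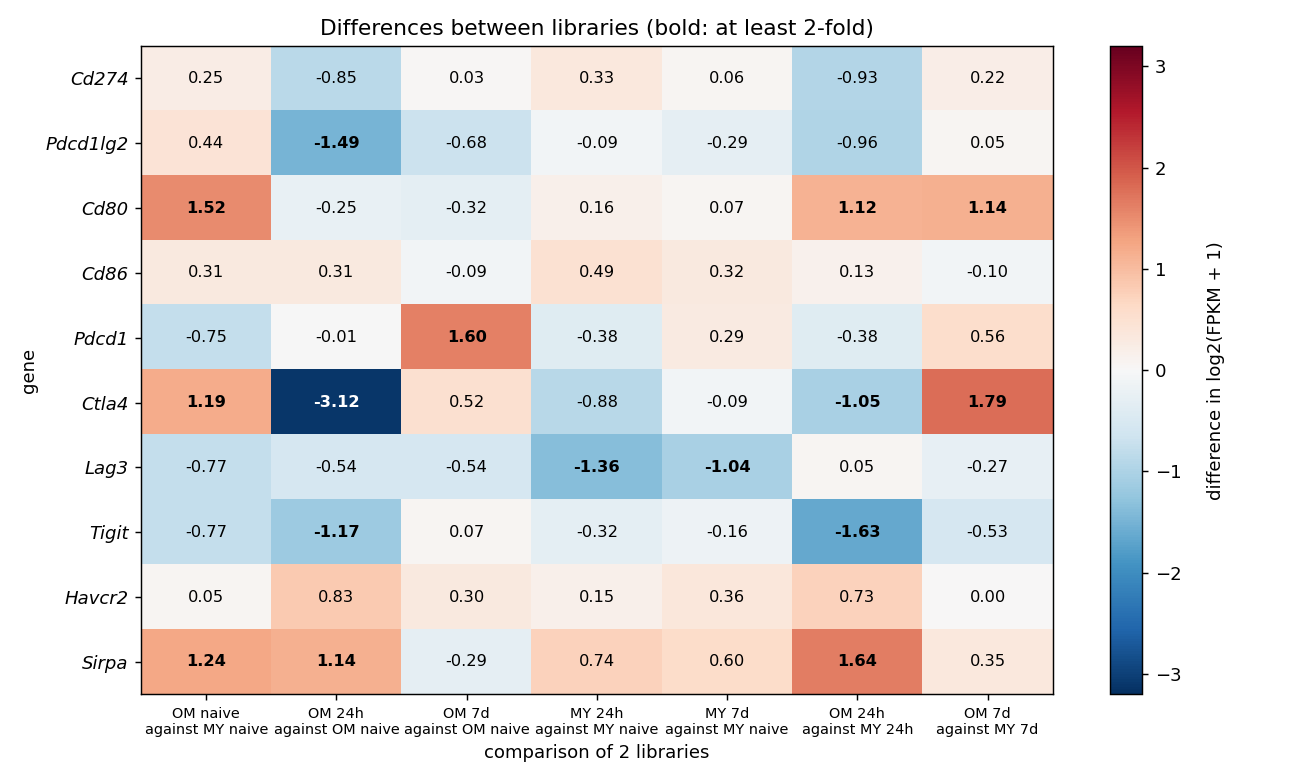
Differences in log2(FPKM + 1) between 2 libraries for the 10 genes (rows) in 7 comparisons (columns), with red for a higher and blue for a lower value in the library named first and bold type at 2-fold or more. The largest is that of Ctla4 in OM 24h against OM naive, at -3.12, and Cd274, Cd86 and Havcr2 stay under 2-fold throughout.

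The order of the set by FPKM, a level per length, was led by Sirpa everywhere. Cd86 or Cd274 came next in every library but OM 7d, where Ctla4 was second. Sirpa lay between the 85.2 and 96.9 percentile of the expressed genes over the libraries, Cd86 between 68.8 and 77.2, Ctla4 between 21.2 and 79.8, and Lag3 between 5.57 and 29.8.

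Other genes of the same pathways were taken from lists made by function, of which 39 genes were expressed. Between the naive tissues 8.18% of all expressed genes were at least 2-fold higher in the omentum and 8.05% lower. Of the 39, 3 were higher and 12 lower, the opposite balance to the 10 genes. Among those reaching an FPKM of 10, the largest differences toward the omentum were those of Ceacam1, a TIM-3 ligand gene (23.1 against 5.06, a log2 difference of 1.99), and Tnfsf9, which encodes the ligand of 4-1BB (21.0 against 4.91, 1.90), and the other higher gene was the less abundant Thbs1 (6.08 against 0.602, 2.14). Toward the mesentery they were those of the lymphocyte receptor gene Cd27 (4.99 against 63.3, -3.42) and of Tnfrsf9, the gene of 4-1BB (7.22 against 52.6, -2.71). In the list of 8 expressed B7 and CD28 family genes, 4 were lower and 0 higher.

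After injection the partner genes in the omentum followed more than one course. In OM 24h against OM naive 6 of 39 were higher and 11 lower (11.9% and 6.45% of all genes). Cxcl10, an interferon-gamma response gene, was higher by 3.25 (124.2 against 12.1) and Nectin2, a ligand gene of TIGIT and CD226, by 3.02 (51.6 against 5.47). Lower were Btla, an inhibitory receptor gene that B cells also express (7.87 against 35.7, -2.05), and Tnfrsf18 (14.8 against 44.1, -1.52). In OM 7d against OM naive 8 were higher and 1 lower (11.0% and 1.96% of all genes). Cxcl10 (3.16) and Nectin2 (2.88, at 46.6) again led. The 1 lower gene was Cd226, the activating receptor for Nectin2 (5.21 against 13.8, -1.25). Nectin2 was between 5.28 and 8.45 in the mesentery. The mesothelial list moved with it, at 63.0, 711.7 and 740.8 in the omentum and at most 0.439 in the mesentery, and its part was not tested.

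In the mesentery few partner genes differed over time, as few of all genes did (4.32% at 24 h and 2.79% at 7 d). At 24 h 1 of 39 was higher, Thbs1 (2.57 against 0.602, 1.16), and 1 lower, Ifng (4.21 against 10.2, -1.10), which became 1 and 3 after rescaling, and at 7 d 0 were higher and 2 lower, Ifng (3.92 against 10.2, -1.19) and Cxcl10 (13.9 against 35.1, -1.28). Ifng, the gene of a cytokine that induces PD-L1, was at 7.27, 0.0219 and 5.05 in the omentum. OM 24h was the lowest library of both Ifng and Cd274. In the mesentery Ifng was lower at 24 h than in naive mice, while Cd274 was 28.6 against 22.5. A link between them was not tested. Among genes reaching an FPKM of 10, the largest positive differences from MY naive were those of Lgals3 (0.89) and Irf1 (0.56) at 24 h and of Btla (0.82) and Cd96 (0.72) at 7 d, all under 2-fold. Between the tissues at 24 h, 9 of 39 were higher in the omentum and 14 in the mesentery (13.9% and 10.2% of all genes). At 7 d these were 8 and 9 (14.1% and 4.99% of all genes). Thbs1, which encodes thrombospondin, a CD47 ligand, led the first group at both times (3.62 and 4.06), and Cd27 was among the lowest at both (-4.45 and -3.45).

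For each of the 10 genes the 3 most similar patterns over the 6 libraries were sought among 7998 genes that reached 10 FPKM somewhere, by Pearson r of log2(FPKM + 1). With 6 points shared by all genes the r values, between 0.951 and 0.998, are a description. Among the ligands, Cd274 was most like Leng9 (r = 0.991), Brd3 and Haao, and Pdcd1lg2 like Snn (0.996), Lysmd2 and Eif4g3. Cd80 was most like Prmt2 (0.998), Rgs18 and the cytokine gene Il10, and Cd86 like Fcgrt (0.985), Tpd52 and Rbfa. Among the receptors, Pdcd1 was most like Rpl26 (0.972), Prr3 and Stx5a, Ctla4 like Tug1 (0.980), Mif4gd and the lymphocyte activation marker gene Cd69, and Lag3 like Ppp4r2 (0.988), Brap and Fam134c. Tigit was most like Il2rb (0.996), Rbm6 and Tbx21, of which Il2rb and Tbx21 are genes of NK and T cells. Havcr2 was most like P2rx7 (0.992), Mpv17l2 and Def8, and Sirpa like AB124611 (0.996), the endotoxin receptor gene Tlr4, and Crat.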

How the data were processed

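Cells of both tissues were sorted, and their RNA was sequenced as 6 libraries, 1 per condition. The authors aligned the reads with STAR 2.4.2a to mm9 after FastQC 0.11.4 (versions from the submitters' processing notes) and deposited FPKM computed with Cufflinks, 1 value per gene symbol and library. FPKM are not counts, so no count test was run, and with 1 library per condition no test between conditions was made. FPKM divides by transcript length and by aligned reads, so a library with a few very abundant genes has lower FPKM for the rest.

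Differences were computed as log2(FPKM + 1), which understates those of low genes, with scipy 1.17.1, pandas 2.3.3, numpy 2.4.6 and matplotlib 3.10.9 under Python 3.11.15. Genes that reached 1 FPKM in any library were taken as expressed, and differences of 2-fold were counted. The 10 genes and all lists were chosen with earlier results of these data known. Vsir, Nectin2, Nectin3 and Adgre1 were read under older symbols. The partner genes named are the 2 largest differences each way per comparison with an FPKM of at least 10. Other genes outside the 10 and the marker lists were named after their values were seen. Of the ratios, those of Cd86 to Cd80 and of Cd274 to Pdcd1lg2 were planned, and the others were added after the values were seen.

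Depth was judged roughly. In MY naive, single-exon genes piled up at the value of 1 fragment, which gave about 35500000 fragments, and the commonest ratio of FPKM under 0.1 gave relative depths of 0.853 (OM naive) to 1.48 (OM 7d). Fragment numbers from these and the exonic lengths of GENCODE M1 gave exact Poisson 95% intervals, which cover counting error only. The counting of differences and of separated genes was tested on simulated data. Alternatives were pseudocounts of 0.1 and 5, other filters, a median-ratio rescaling (factors 0.972 to 1.03) and a rescaling to a sum of 1000000.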

Additional observations from a re-analysis of the deposited data

Results flagged for a closer look

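Among the 10 checkpoint genes and their expressed partner genes, Cxcl10 and Btla differed from the naive library in opposite directions in the tissues, by at least 1.5-fold in each. With 1 library per condition this difference was not tested. Cxcl10 was higher in the omentum by 3.25 at 24 h and by 3.16 at 7 d on the log2(FPKM + 1) scale, and lower in the mesentery, with -0.70 and -1.28. Btla at 7 d stood at -0.69 in the omentum (21.7 against 35.7) and at 0.82 in the mesentery (38.9 against 21.6). The B cell list went the same way as Btla, from 3967 to 2447 and from 795.7 to 1539, and its part was not tested. None of the 10 genes met this criterion. The share of all expressed genes that met it was not counted, so neither result can be called unusual.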

How the results depend on the processing

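No paired analysis was possible because the groups share a single replicate number; a fit over the tissues with time as the pair would use different conditions as replicates and was not run. A count was taken as kept within 1.5 times its value, and a log2 value within 0.58, and the causes of shifts were not tested. Of 432 values recomputed, 398 were kept and 34 moved. All 42 medians of the 10 genes were kept within the tolerance, but 3 of them changed sign, as did 7 of 280 differences of single genes, each at most 0.13 in size before and 0.18 after. The median in OM 7d against OM naive went from -0.03 to 0.12 after rescaling to equal sums and to 0.02 after median-ratio rescaling, and that in MY 24h from 0.03 to -0.08. Of the differences that changed sign, 0 were of at least 2-fold. With a pseudocount of 5 the number of the 10 genes past 2-fold became 1 between the naive tissues, 2 in OM 24h and 0 in both mesenteric comparisons with the naive library, and 1 between the tissues at 24 h and at 7 d. Of the 70 differences, 10 lost the call and 0 gained it at that setting. The counts over all expressed genes fell at that setting as well. They went from 2119 to 1033 between the naive tissues, from 2396 to 1165 in OM 24h and from 565 to 213 in MY 24h. Between the tissues they went from 3145 to 1625 at 24 h and from 2494 to 1174 at 7 d. Rescaling to a sum of 1000000 gave 5 between the naive tissues and 2 in MY 24h. Requiring an FPKM of 1 in every library, which removes Lag3 and Tigit, gave 0 in MY 24h and MY 7d. Over all expressed genes, rescaling raised the counts to 2652 between the naive tissues and 749 in MY 24h. Among the genes that the filter kept, 329 were called in MY 24h and 204 in MY 7d. For the partner genes a pseudocount of 5 gave 9 (OM 24h), 5 (OM 7d), 0 (MY 24h) and 1 (MY 7d). A pseudocount of 0.1 gave 6 in MY 24h, where the count over all genes rose from 565 to 1242. Rescaling gave 4 there. The filter on every library gave 9 in OM 24h, 0 in MY 24h, 1 in MY 7d and 10 between the tissues at 7 d. With that filter the counts over all genes fell to 1424 in OM 24h and to 1023 between the tissues at 7 d. The genes separated between the tissues with the omentum higher numbered 2 without a minimum gap, 0 after rescaling, 0 with a pseudocount of 5, and, chosen after seeing the data, 2 without OM 24h and 2 without both libraries at 24 h. With the omentum lower there was 1 without a minimum gap. Low depth limits Tigit and Lag3 most, and the missing replicates limit every difference.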

Other observations

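The list of TNF superfamily costimulation had 9 expressed genes. The receptor genes Tnfrsf9, Tnfrsf4 (OX40), Tnfrsf18 (GITR) and Cd27 and the ligand gene Cd40lg were higher in every mesenteric than in any omental library. This order held for 17.7% of all expressed genes, and the reverse for 16.7%. Tnfrsf9 stood at 7.22, 2.63 and 15.7 in the omentum and at 52.6, 76.4 and 64.9 in the mesentery. Tnfrsf4 stood at 7.87, 1.79 and 26.5 and at 44.6, 60.1 and 42.7, and Tnfrsf18 at 44.1, 14.8 and 55.1 and at 88.7, 86.5 and 85.95. Cd40lg, whose product gives T cell help, stood at 3.88, 1.25 and 3.56 and at 10.7, 8.56 and 13.4. All 5 were lowest in OM 24h. The ligand gene Tnfsf9 was the other way round, at 21.0, 30.6 and 15.1 in the omentum and at 4.91, 4.33 and 3.58 in the mesentery. Cd40, which antigen-presenting cells use to receive help from T cells, differed little, at 52.2 to 68.3 in the omentum and 63.9 to 74.05 in the mesentery, with overlap. The low ligand genes Tnfsf4 (0.296 to 2.46 and 0.299 to 1.296) and Cd70 (listed at 0 in OM 24h, at most 1.18 elsewhere) also overlapped between the tissues.

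Icosl, the ligand gene of ICOS, was higher in every mesenteric than in any omental library, as Icos was and Cd80 was not. It stood at 17.4, 11.8 and 18.2 in the omentum and at 48.0, 58.9 and 46.7 in the mesentery. Within the mesentery Icosl was highest at 24 h, where Icos was lowest. The mature dendritic cell list was also higher in every mesenteric library, and its part was not tested. Vsir, the gene of the myeloid checkpoint protein VISTA, stood at 52.8, 103.6 and 41.6 in the omentum and at 46.1, 63.0 and 60.3 in the mesentery, with the library at 24 h highest in both, as for the macrophage list.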
